A study of Mus musculus with 16 samples.

Results

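A set of 9 T cell genes was followed through mouse spleen, where they mark the identities a T lymphocyte can take: Cd3e and Cd3g for the T cell receptor, Cd4, Cd8a and Cd8b1 for the coreceptors, Foxp3 and Ctla4 for regulatory T cells, and Lef1 and Tcf7 for the transcription factors of naive and memory cells. They were taken by symbol from a table of 54838 genes, and all 9 were found and passed the filter on low counts. RNA was sequenced from 16 samples of C57BL/6 spleen, 8 size-selected and 8 whole. Size-selected samples are what a cell strainer retained after mincing, enzymatic digestion and red cell lysis, and their labelled source is spleen glia, the supporting cells of the nerves that enter the organ. Whole spleen is the comparison group, and the labels give no separate protocol for it. Each group holds the same 8 numbers, of which 407, 408, 427 and 435 are male and 436, 445, 447 and 460 are female, with no age given. The labels do not say that a number is an animal, so p-values measure the spread between these samples, which may be technical.

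A T cell recognises antigen through a receptor whose signal is carried into the cell by the CD3 chains. The coreceptor CD4 or the CD8 alpha and beta chains bind the presenting molecule and mark helper and cytotoxic cells. In mouse spleen these coreceptors are less strictly T cell genes than CD3: Cd4 is also found on a subset of conventional dendritic cells and Cd8a, without its beta chain, on another. FOXP3 directs regulatory T cells, CTLA4 is the inhibitory receptor that competes with CD28 for its ligands, and TCF7 and LEF1 are related DNA-binding factors that hold T cells in a naive or long-lived state.

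Totals ran from 13119992 to 19944440 estimated counts in the size-selected samples, with a median of 14677700, and from 12153770 to 16282454 in whole spleen. Levels are given as CPM, counts scaled to a common library total, here after TMM scaling. In the size-selected columns the values of 3898 genes had been multiplied by up to 3 constants, which no label mentions. Cd3g, Lef1 and Tcf7 carry such constants and the other 6 genes do not, so values as deposited are given first and values with the constants divided out ("restored") are given beside them. The labelled source was checked against 7 glial markers, whose summed level was 0.622 to 3.10 CPM in whole spleen and 68.4 to 544 CPM in the size-selected samples. These are given as levels, with no count of calls, because markers so near 0 in whole spleen pass the filter on low counts through the size-selected samples. Size-selected sample 427 had the lowest level of 7 of the 9 T cell genes.

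The receptor genes, the CD8 chains, the regulatory genes and the transcription factors were all lower in the size-selected samples, and Cd4 was not. By edgeR's quasi-likelihood test, 8 of 9 genes fell (Benjamini-Hochberg adjusted p under 0.05), and none rose. Over all genes the background was high: 67.9% of 14510 genes tested were called in either direction, 30.4% lower and 37.5% higher. The median log2 fold change was -1.62 over the 9 genes, or -1.32 on restored counts, against 0.05 over all genes tested. The folds ran from 1.98-fold lower for Cd8a to 3.93-fold lower for Cd3g, with Cd4 at 1.23-fold higher. In bulk RNA, fewer T cells and less RNA per T cell cannot be told apart.

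**Figure D1:**
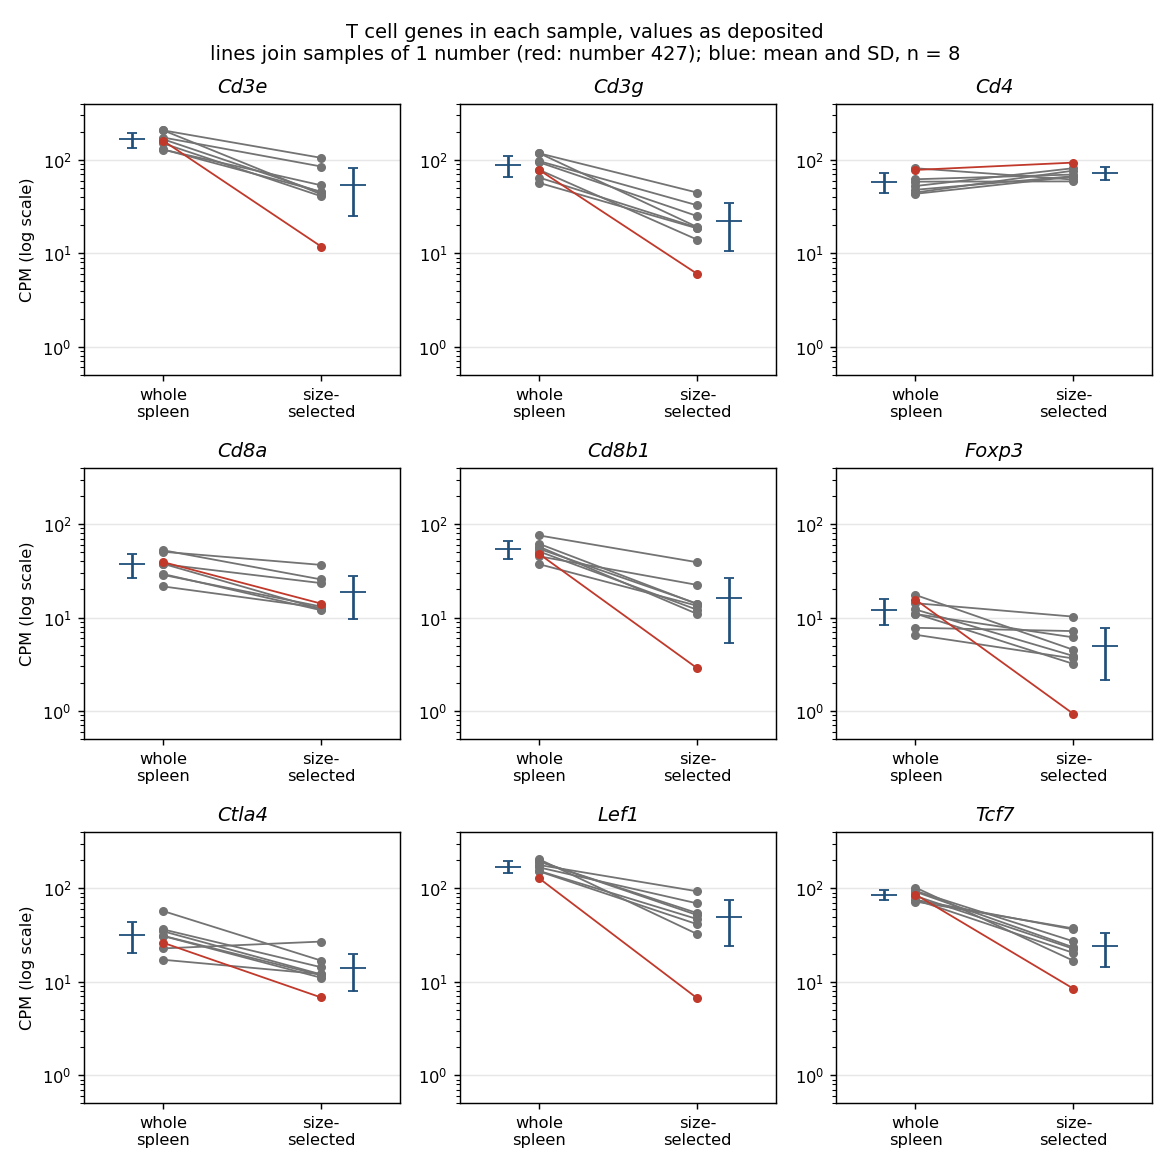
Level of each of the 9 genes in CPM (log axis, values as deposited) in whole spleen and size-selected samples, with lines joining samples of 1 number, number 427 in red, and the mean and SD (n = 8) in blue. Every line falls for Cd3e, Cd3g, Cd8a, Cd8b1, Foxp3, Lef1 and Tcf7, 1 line of 8 rises for Ctla4, and 7 of 8 rise for Cd4.

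Cd3e (ENSMUSG00000032093, chromosome 9, 44998740 to 45009627, minus strand, GRCm38) encodes the CD3 epsilon chain, present in every T cell receptor complex. Its level was 129 CPM in the lowest whole spleen sample, 163 at the median and 207 in the highest, against 11.8, 45.2 and 105 in the size-selected samples. All 8 size-selected samples lay below all 8 whole spleen samples, with 427 far below the rest and 408 and 435 above them. Cd3e fell by 1.62 on the log2 scale (SE 0.28, edgeR adjusted p = 5.75e-05).

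Cd3g (ENSMUSG00000002033, chromosome 9, 44969572 to 44980431, minus strand) encodes the CD3 gamma chain and lies 18308 bases from Cd3e on the same strand. Whole spleen had 56.7, 86.1 and 118 CPM (lowest, median, highest) and the size-selected samples 6.01, 19.0 and 44.6. The groups again did not overlap. Cd3g fell by 1.98 (SE 0.29, edgeR adjusted p = 6.96e-06) as deposited and fell by 1.73 on restored counts. Such a separation was found in 11.6% of the genes tested, with size-selected samples wholly below whole spleen, and in 4 of the 9 T cell genes (Cd3e, Cd3g, Lef1 and Tcf7). In the other direction, 23.3% of all genes had size-selected samples wholly above whole spleen, and none of the 9 did.

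The ratio of Cd3g to Cd3e counts within a library, on restored counts, did not differ between the groups beyond the spread of the samples. It was 0.440 to 0.568 in whole spleen and 0.434 to 0.651 in the size-selected samples, a mean log2 difference of -0.01 (SD of the 8 pairs 0.21, exact permutation of the group labels, adjusted p over 12 ratios = 0.912). As deposited, the same difference was -0.31 with an adjusted p of 0.0257 by the exact permutation test, so that call exists only with the constant that multiplies Cd3g. The sequences upstream of these neighbouring genes are shown as a description. Each gene fell in all 8 pairs, as did 22.2% of all genes tested, and a link to the sequence was not tested. The sequences come from RefSeq windows on GRCm38.p6 and end at the annotated start, in Cd3e after leaving out 16 bases that lie in an annotated exon. Capitals mark a match to a motif of GATA factors, at 104 bases before the Cd3g start.
Cd3e, chr9:45009628-45009861, minus strand: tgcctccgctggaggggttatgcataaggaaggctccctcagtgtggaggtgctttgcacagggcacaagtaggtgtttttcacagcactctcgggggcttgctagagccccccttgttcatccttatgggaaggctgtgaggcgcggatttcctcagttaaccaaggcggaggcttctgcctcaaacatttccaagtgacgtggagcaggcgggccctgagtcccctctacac
Cd3g, chr9:44980432-44980681, minus strand: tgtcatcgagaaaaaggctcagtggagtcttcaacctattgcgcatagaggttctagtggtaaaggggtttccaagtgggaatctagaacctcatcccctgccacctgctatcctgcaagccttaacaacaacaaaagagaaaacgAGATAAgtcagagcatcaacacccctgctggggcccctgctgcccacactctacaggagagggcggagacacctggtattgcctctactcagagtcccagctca
Windows of 250 bases before each start were searched on each strand for 3 motifs of T cell factors. The letters AGATAA of the GATA family were in 9.99% of the 32851 windows of the whole RefSeq table, the RUNX letters TGTGGT in 14.05% and the TCF/LEF letters CTTTGA in 13.8%. No match in the printed windows overlapped another. Of the 7 T cell genes with a window, Cd3g and Foxp3 held the GATA letters, Lef1 held the TCF/LEF letters, and the windows of Cd3e, Cd8a, Ctla4 and Tcf7 held none of the 3. Only 4 of the 7 have a single window, so these counts of genes cannot be set against the shares of windows.

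Of 20 other genes listed for the receptor complex and its proximal signalling, 19 fell and none rose, where 30.4% of all genes tested fell. Their median log2 fold change was -1.43. Cd3d, the CD3 delta chain, fell by 1.83 (SE 0.26, edgeR adjusted p = 4.47e-06). Trbc2, a constant segment of the receptor beta chain, fell by 1.82, though its near-identical copy Trbc1 makes the split of reads between the pair uncertain. Lcp2, the adaptor SLP-76, was the only gene of the list not called, at 0.24, and it is also used by other blood cells. It rose by 0.94 on restored counts (edgeR adjusted p = 1.24e-06).

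The coreceptors split. Cd8b1 and Cd8a fell, Cd8a less than Cd8b1 by the ratio of their counts, and Cd4 was not called. Cd8b1 (ENSMUSG00000053044, chromosome 6, 71322788 to 71337494, plus strand), the CD8 beta chain, had 37.2, 52.6 and 75.7 CPM in whole spleen and 2.86, 13.7 and 39.1 in the size-selected samples. Only size-selected sample 435 reached into the whole spleen range. Cd8b1 fell by 1.74 (SE 0.32, edgeR adjusted p = 0.000112).

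Cd8a (ENSMUSG00000053977, chromosome 6, 71373427 to 71379173, plus strand), the CD8 alpha chain, lies 35932 bases from Cd8b1. Its whole spleen levels were 21.5, 37.5 and 52.6 CPM and its size-selected levels 11.99, 13.6 and 36.6. It was lower in all 8 pairs, as were 22.2% of all genes tested, but the ranges overlapped through samples 407, 408 and 435. Cd8a fell by 0.99 (SE 0.25, edgeR adjusted p = 0.00176). In size-selected sample 427, where Cd8b1 was at 2.86 CPM, Cd8a stood at 14.1 CPM, within the range of the other samples.

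Cd4 (ENSMUSG00000023274, chromosome 6, 124864692 to 124888221, minus strand) had 43.4, 55.5 and 81.4 CPM in whole spleen and 58.9, 68.4 and 93.6 in the size-selected samples. It was higher in the size-selected sample of 7 numbers and lower in that of 436, and the ranges overlapped widely. Its highest size-selected value was in sample 427, which had the lowest Cd3e. The log2 difference was 0.30 (SE 0.14, edgeR adjusted p = 0.0669). The direction was the same in every fit run, but the call was not: with the number as a block the edgeR adjusted p was 0.0371, and with the block on restored counts it was 0.0742. Scaling by library totals, which moved the median of all genes from 0.05 to 0.18, gave 0.41 with an edgeR adjusted p of 0.0155.

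**Figure D2:**
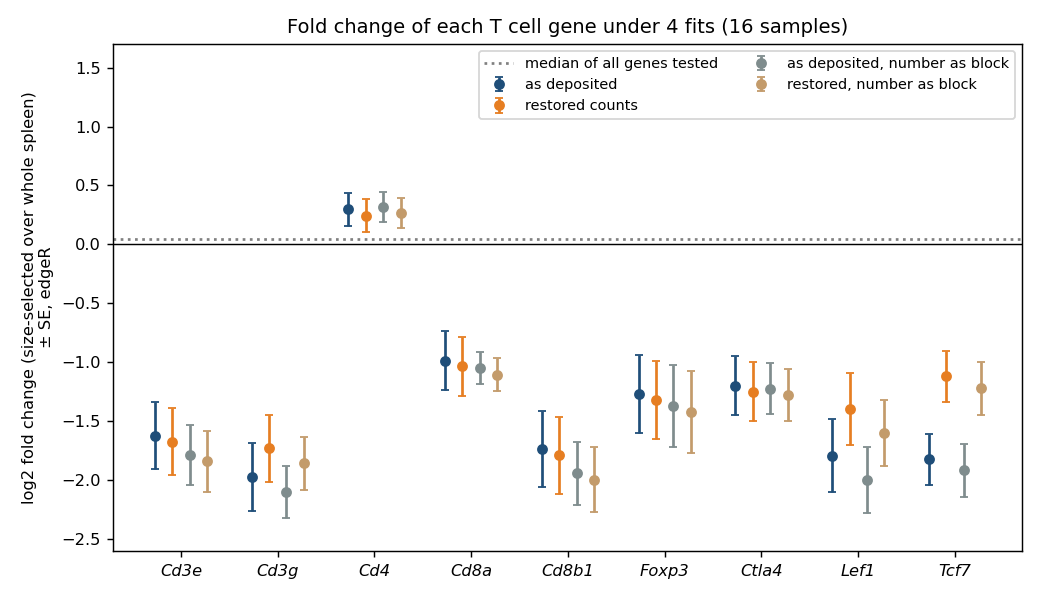
Log2 fold change of each gene, size-selected over whole spleen, with its SE (edgeR, 16 samples), as deposited and restored, with and without the number as a block. Cd4 alone lies above 0 in all 4 fits, Cd8a is the least lowered of the rest as deposited, and dividing out the constants moves Tcf7 most, from -1.82 as deposited to -1.12 restored.

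Ratios within a library, which need no scaling, put a size on the split. As Cd3e and Cd8b1 fell in all 8 pairs, any gene that did not fall gives a raised ratio to them. The ratios therefore do not set Cd4 apart from other genes that did not fall. The Cd4 to Cd3e ratio was 0.210 to 0.488 in whole spleen and 0.630 to 7.88 in the size-selected samples, higher in all 8 pairs and with no overlap. The mean log2 difference was 2.14 (SD of pairs 0.88), and the exact permutation p of 0.0001554 is the smallest that 8 against 8 can give (adjusted p = 0.000932). The ratio of 7.88 belongs to sample 427, and without that number the difference was 1.87 (exact permutation, adjusted p = 0.0035). Cd4 against Cd8b1 gave 2.32 (SD of pairs 1.00) with the same exact permutation p. Its ratio was 31.9 in sample 427 and 1.69 to 6.35 in the other size-selected samples, and without that number the difference was 2.04 (exact permutation, adjusted p = 0.0035).

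The CD8 chains also came apart. The Cd8a to Cd8b1 ratio had a median of 0.738 in whole spleen and 0.993 in the size-selected samples and was higher in all 8 pairs. The log2 difference was 0.95 (SD of pairs 0.79, exact permutation, adjusted p = 0.00186). The highest ratios were 4.83 in sample 427 and 2.34 in sample 407, while the other 6 size-selected samples lay between 0.874 and 1.05. Without number 427 the difference was 0.72 and kept its call (exact permutation, adjusted p = 0.00699). Cd8a against Cd3e gave 0.77 (exact permutation, adjusted p = 0.0175), which without number 436 was 0.71 with an adjusted p of 0.0531 and without number 427 was 0.55 with an adjusted p of 0.0385 by the same test. Cd8b1 against Cd3e gave -0.18 (SD of pairs 0.25) and did not pass (exact permutation, adjusted p = 0.18).

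**Figure D3:**
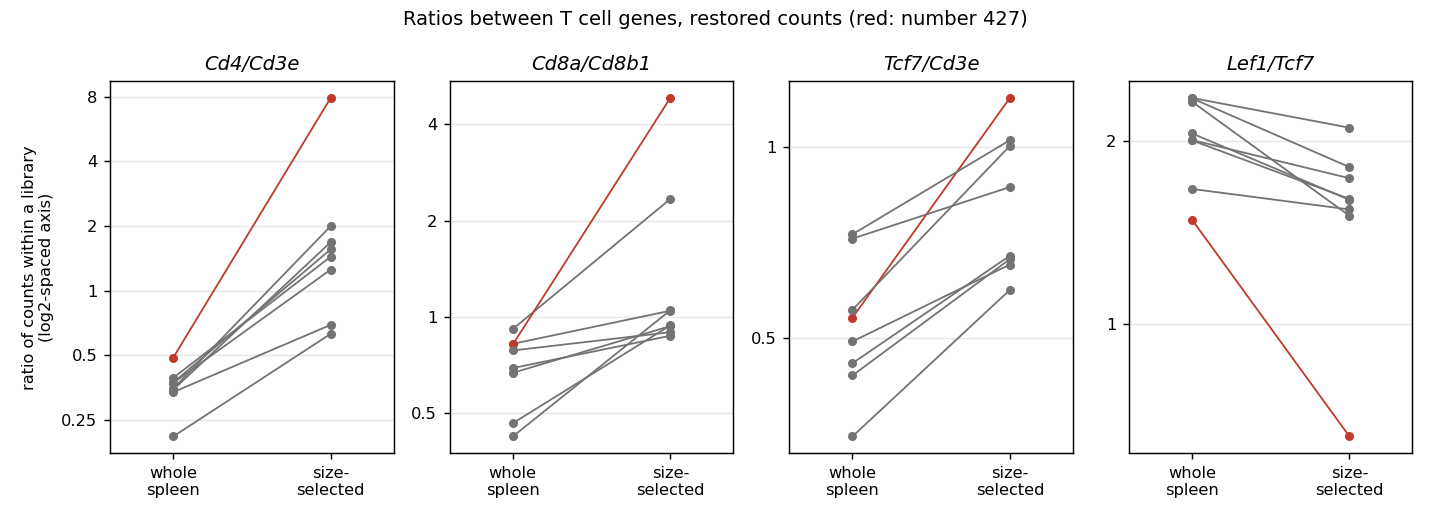
Ratios of restored counts within a library for 4 pairs of genes, on log2-spaced axes, with lines joining samples of 1 number and number 427 in red. The Cd4 to Cd3e, Cd8a to Cd8b1 and Tcf7 to Cd3e ratios rise in all 8 pairs and the Lef1 to Tcf7 ratio falls in all 8.

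Since dendritic cells can carry Cd4 and Cd8a, their markers were measured beside these results. Of 6 markers of conventional type 1 dendritic cells, 3 rose and 2 fell, beside 37.5% of all genes called higher and 30.4% lower. Their summed level was 80.5 to 148 CPM in whole spleen and 129 to 240 CPM in the size-selected samples, highest in 427. The median log2 fold change of the 6 was 0.45. Clec9a and Xcr1 (named here after their values were seen) were the 2 that fell, at -1.15 and -0.63. Cadm1, the most abundant, went from a mean of 58.1 to 114 CPM. Of 6 type 2 markers, 1 rose and 1 fell, with sums of 215 to 341 and 118 to 254 CPM, lowest in 427; Irf4, the most abundant and also a lymphocyte gene, went from 224 to 137 CPM. No marker in these 2 lists was at 0 in all samples of a group. The part of these cells in the Cd4 and Cd8a values was not tested.

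Most genes of the helper and CD8 lineages fell, although Cd4 did not. Of 8 helper genes tested (of 10 listed), 6 fell and 1 rose, with a median of -1.08, where 30.4% of all genes tested fell and 37.5% rose. Ifng, the effector cytokine interferon gamma, fell by 1.72 (from a mean of 2.08 to 0.630 CPM), and Cd40lg, the helper signal to B cells, fell by 1.34. Zbtb7b, the factor that commits cells to the CD4 lineage (named here after its value was seen), fell by 1.11 (SE 0.17, edgeR adjusted p = 1.56e-05). Maf, used by helper cells and by macrophages, rose by 0.70, a call lost without number 427. Of 8 CD8 lineage genes, 7 fell and none rose, with a median of -1.52. With the number as a block all 8 fell, the added gene being the granzyme gene Gzmk (edgeR adjusted p = 0.013). Nkg7, a cytotoxic granule gene, fell by 2.05, and Ccl5, a chemokine gene, fell by 1.97, and natural killer cells express each of them. Markers of natural killer cells fell too, 6 of 6, where 30.4% of all genes tested fell. They summed to 232 to 465 CPM in whole spleen and 29.9 to 221 CPM in the size-selected samples, with Gzma going from 132 to 41.2 CPM. The part of natural killer cells in the CD8 list was not tested.

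Foxp3 (ENSMUSG00000039521, chromosome X, 7573644 to 7595245, plus strand) was the scarcest of the 9 genes. Whole spleen had 6.55, 11.6 and 17.5 CPM and the size-selected samples 0.931, 4.20 and 10.2. It was lower in all 8 pairs, with overlapping ranges, and the lowest value, in 427, rests on 12.5 counts. Foxp3 fell by 1.27 (SE 0.33, edgeR adjusted p = 0.00233). It overlaps Ccdc22 on the opposite strand, which had up to 801 counts in a sample, and the sources used here do not state whether strand was used in counting, so reads in the overlap cannot be assigned.

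Ctla4 (ENSMUSG00000026011, chromosome 1, 60887000 to 60915832, plus strand) had 17.2, 31.0 and 57.2 CPM in whole spleen and 6.80, 12.1 and 26.99 in the size-selected samples. It was lower in 7 of 8 pairs, the exception being 408, and the ranges overlapped. It shares bases with the pseudogene Rpl18-ps1, which had up to 74.98 counts in a sample. Ctla4 fell by 1.20 (SE 0.25, edgeR adjusted p = 0.000347). For neither gene did the ratio to Cd3e pass: the log2 difference of the Foxp3 to Cd3e ratio was 0.37 (SD of pairs 0.47, exact permutation, adjusted p = 0.157) and that of Ctla4 to Cd3e was 0.61 (SD of pairs 0.63, adjusted p = 0.13 by the same test). For Ctla4, exact sign flips of the 8 pairs gave an adjusted p of 0.0234, and leaving out number 435 gave 0.63 (exact permutation, adjusted p = 0.0252). Its highest size-selected ratio, 0.578, was in sample 427 and the next was 0.395; without that number the difference was 0.44 (exact permutation, adjusted p = 0.251).

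Of 14 regulatory T cell genes tested, 11 fell and 1 rose, where 30.4% of all genes tested fell and 37.5% rose. Their median was -1.29. On restored counts 10 fell and 2 rose, and with the number as a block 11 fell and 2 rose. Izumo1r, the folate receptor 4 of regulatory and anergic cells, fell by 1.80, and Tnfrsf18, which encodes GITR, fell by 1.56. The gene that rose was Lrrc32, which encodes the TGF-beta docking protein GARP of activated regulatory T cells and is also expressed by endothelial cells and fibroblasts. It went from a mean of 26.0 to 232 CPM (log2 fold change 3.15, SE 0.18, edgeR adjusted p = 1.52e-10). Endothelial markers, 6 of 6 higher, summed to 80.6 to 186 CPM in whole spleen and 586 to 1479 CPM in the size-selected samples, with Pecam1 going from 64.5 to 280.3 CPM. Fibroblast markers summed to 4.67 to 55.6 and 1003 to 3484 CPM, with Col3a1 going from 3.29 to 618 CPM. Their part in the Lrrc32 value was not tested. Of the 6 genes listed as ligands and relatives of CD28 and CTLA4, 2 rose and 2 fell, a share near the 37.5% higher and 30.4% lower of all genes tested. Cd80, a ligand of CTLA4, rose by 0.46 and Cd274, which encodes PD-L1, by 0.44, while Pdcd1lg2, which encodes PD-L2, fell by 1.39 and the inhibitory receptor gene Btla fell by 0.59. The number called higher was 1 on restored counts, where Cd80 did not pass (edgeR adjusted p = 0.0722, against 0.0438 as deposited), and 2 with the block on restored counts. It was also 1 with limma-voom, with no filter and without any of numbers 407, 408, 445, 447 or 460.

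Lef1 (ENSMUSG00000027985, chromosome 3, 131110471 to 131224356, plus strand) and Tcf7 (ENSMUSG00000000782, chromosome 11, 52252371 to 52283014, minus strand) were lower in every size-selected sample than in any whole spleen sample. Lef1 had 128, 173 and 205 CPM in whole spleen and 6.66, 49.4 and 93.1 in the size-selected samples. Tcf7 had 72.3, 84.6 and 102 CPM, against 8.45, 23.0 and 37.3. For each gene, size-selected sample 427 was the lowest. Lef1 overlaps the antisense gene Gm43352, which had up to 148 counts in a sample. Lef1 fell by 1.79 (SE 0.31, edgeR adjusted p = 5.12e-05) as deposited and fell by 1.398 (adjusted p = 0.000544) on restored counts. Tcf7 fell by 1.82 (SE 0.21, edgeR adjusted p = 5.19e-07) as deposited, 3.54-fold, and fell by 1.12 (adjusted p = 0.000149), 2.17-fold, on restored counts. The Tcf7 range also stayed apart after restoring, at 13.2 to 59.2 CPM against 70.8 to 100.1 CPM in whole spleen.

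On restored counts Tcf7 fell less than Cd3e. Their ratio was 0.349 to 0.727 in whole spleen and 0.594 to 1.19 in the size-selected samples, higher in all 8 pairs, with a log2 difference of 0.64 (SD of pairs 0.28, exact permutation, adjusted p = 0.0131). The highest ratio was in sample 427, and without that number the difference was 0.57 (exact permutation, adjusted p = 0.0336). As deposited the difference was -0.11 and did not pass (exact permutation, adjusted p = 0.57), so this result rests on dividing out the constants. Lef1 fell further than Tcf7 on restored counts: their ratio went from a median of 2.03 to 1.60 and was lower in all 8 pairs, a log2 difference of -0.42 (SD of pairs 0.35, exact permutation, adjusted p = 0.0444). The lowest ratio, 0.655, was in sample 427, and without that number the difference was -0.31 (exact permutation, adjusted p = 0.0297). That call was lost as deposited, where the difference was -0.12 (adjusted p = 0.685 by the same test), and when any of numbers 407, 435, 436, 447 or 460 was left out, with exact permutation adjusted p from 0.0746 to 0.117. With any 1 of these numbers left out the difference was between -0.45 and -0.39 and the ratio was lower in all 7 remaining pairs. Exact sign flips of the 8 pairs gave an adjusted p of 0.01875 for the restored difference. Lef1 against Cd3e gave 0.22 (exact permutation, adjusted p = 0.301) and -0.23 as deposited; exact sign flips of the pairs gave an adjusted p of 0.0234 on restored counts.

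The 4 RefSeq promoter windows of Lef1 differ in the letters they hold. Of the 4, 2 lie within the gene and outside its annotated exons, and only the one farther downstream held TCF/LEF letters, at 180 and 120 bases before its start. It is shown for that reason with the matches, read on the opposite strand, in capitals. The table gives 1 value per gene, so the starts cannot be told apart.
Lef1, chr3:131156044-131156293, plus strand: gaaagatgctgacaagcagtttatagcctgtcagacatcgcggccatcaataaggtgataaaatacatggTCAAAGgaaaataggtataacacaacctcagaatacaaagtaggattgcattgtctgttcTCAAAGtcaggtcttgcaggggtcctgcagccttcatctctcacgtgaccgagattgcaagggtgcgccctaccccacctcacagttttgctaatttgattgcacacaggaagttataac

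Of 15 naive and T lineage genes, 13 fell and 1 rose, with a median of -0.92, where 30.4% of all genes tested fell. Dapl1, a marker of naive T cells, fell by 2.33 (SE 0.44, edgeR adjusted p = 0.000114), and Il7r, the receptor of a survival cytokine, fell by 1.75. Actn1, which encodes the cytoskeletal protein alpha-actinin and is widely expressed, rose by 0.85. Of 7 TCF/LEF relatives and Wnt feedback targets tested (of 10 listed), 4 rose and 1 fell, with a median of 0.59, where 37.5% of all genes tested rose. Tcf7l1, a family member of stem and stromal cells, rose by 3.84 and Tcf7l2 (named after its value was seen) by 0.77. Nkd1, a feedback inhibitor of Wnt signalling, had 0 to 0.503 CPM in whole spleen and 12.6 to 36.4 CPM in the size-selected samples. It passed the filter on low counts through the size-selected samples, so its place among the 4 rises was fixed by the filter and no fold is given. Znrf3, a ubiquitin ligase that removes Wnt receptors, fell by 0.49 (edgeR adjusted p = 0.0412). That call, the only fall of the list, was lost with library totals, with limma-voom, without any of numbers 407, 436, 445, 447 or 460 and without size-selected sample 427. The part of fibroblast and endothelial RNA, whose marker levels are given above, in the values of Tcf7l1, Nkd1 and Actn1 was not tested.

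**Figure D4:**
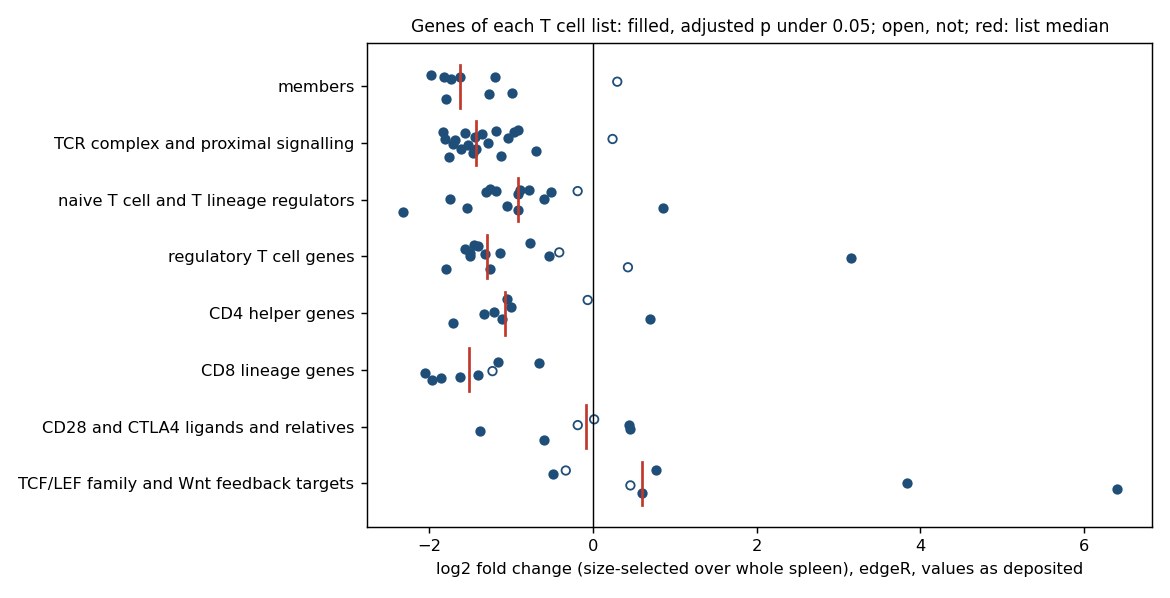
Log2 fold change (size-selected over whole spleen, edgeR, values as deposited) of each tested gene of the 9 studied genes and 7 related lists, filled where the adjusted p was under 0.05, with the list median in red. The medians of the receptor, naive, regulatory, helper and CD8 lists lie between -1.52 and -0.92, and that of the TCF/LEF list at 0.59.

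Per kilobase of exon, on restored counts, the order of the 9 genes changed between the fractions. In whole spleen Cd3e was highest at 39.7 ± 7.29 CPM per kb (SD, n = 8), followed by Cd8b1 at 35.5, Tcf7 at 31.8, Cd3g at 26.4, Lef1 at 19.1, Cd4 at 14.2, Ctla4 at 13.5, Cd8a at 9.996 and Foxp3 at 2.56. In the size-selected samples Cd4 was highest at 16.8 ± 2.62 CPM per kb (SD, n = 8), followed by Tcf7 at 14.6, Cd3e at 12.5, Cd8b1 at 10.3, Cd3g at 7.94, Lef1 at 7.26, Ctla4 at 5.68, Cd8a at 4.87 and Foxp3 at 1.03. In each fraction Foxp3 lay wholly below its neighbour Cd8a, and every other pair of neighbours overlapped. The order depends on the length used: with the longest transcript, Lef1 stood at 46.0 and 17.4 CPM per kb. It also depends on dividing out the constants: as deposited, Tcf7 stood at 9.17 CPM per kb in the size-selected samples, below Cd3e at 13.2 and Cd8b1 at 10.9.

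Among the size-selected samples, Cd3e varied with Cd8b1, Cd3g, Foxp3, Lef1 and Tcf7 and with the B cell gene Cd79a. Log2 CPM of Cd3e and of Cd8b1 had a Pearson r of 0.98 over 8 samples (exact permutation p = 0.00186, adjusted over 4 relations 0.00372; Spearman rho 0.62, exact permutation p = 0.115). Without 427 and 435, the samples farthest from the median, r was 0.87 (exact permutation p = 0.104), so r stayed high while the p was no longer under 0.05 with 6 samples. Cd79a, a B cell receptor chain and the most abundant of the B cell markers, had an r of 0.95 with Cd3e (exact permutation p = 0.000769, adjusted 0.00308; rho 0.93, exact permutation p = 0.00223) and 0.86 without those 2 samples (exact permutation p = 0.0347). In whole spleen the corresponding r was 0.70 for Cd8b1 (exact permutation, adjusted p = 0.0681) and 0.52 for Cd79a (exact permutation, adjusted p = 0.186). Without 436 and 447, the whole spleen samples farthest from the median, r was 0.79 for Cd8b1 (exact permutation p = 0.0708). For Cd79a it was then 0.86 (exact permutation p = 0.0194), as high as in the size-selected samples without 2. Whether the relations differ between fractions was not tested. Of 10 B cell markers, 8 were lower, where 30.4% of all genes tested were. They summed to 6548 to 7997 CPM in whole spleen and 1182 to 4426 CPM in the size-selected samples, lowest in 427 and highest in 435. Cd79a went from a mean of 2989.5 to 831 CPM.

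The other genes were compared with Cd3e in the same way, in 14 relations added after the data were seen. In the size-selected samples, r with Cd3e was 0.97 for Cd3g, 0.97 for Tcf7, 0.96 for Foxp3 and 0.95 for Lef1 (n = 8, exact permutation, adjusted p = 0.00642 for the first 3 and 0.0103 for Lef1), and rho ranged from 0.79 to 0.90. Without 427 and 435, r was 0.82, 0.85, 0.94 and 0.85, with exact permutation p of 0.0556, 0.05, 0.0264 and 0.075. With those 6 samples the p was under 0.05 for Foxp3 alone of the 4, while each r stayed at 0.82 or above. Ctla4 (0.75), Cd8a (0.61) and Cd4 (-0.69) did not pass (n = 8, exact permutation, adjusted p = 0.112, 0.177 and 0.112), and their rho values were 0.55, 0.33 and -0.45. In whole spleen only Cd3g passed, at 0.96 (n = 8, exact permutation, adjusted p = 0.00642; rho 0.90; 0.95 without 436 and 447), while Lef1 was at 0.04 and Tcf7 at -0.18.

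**Figure D5:**
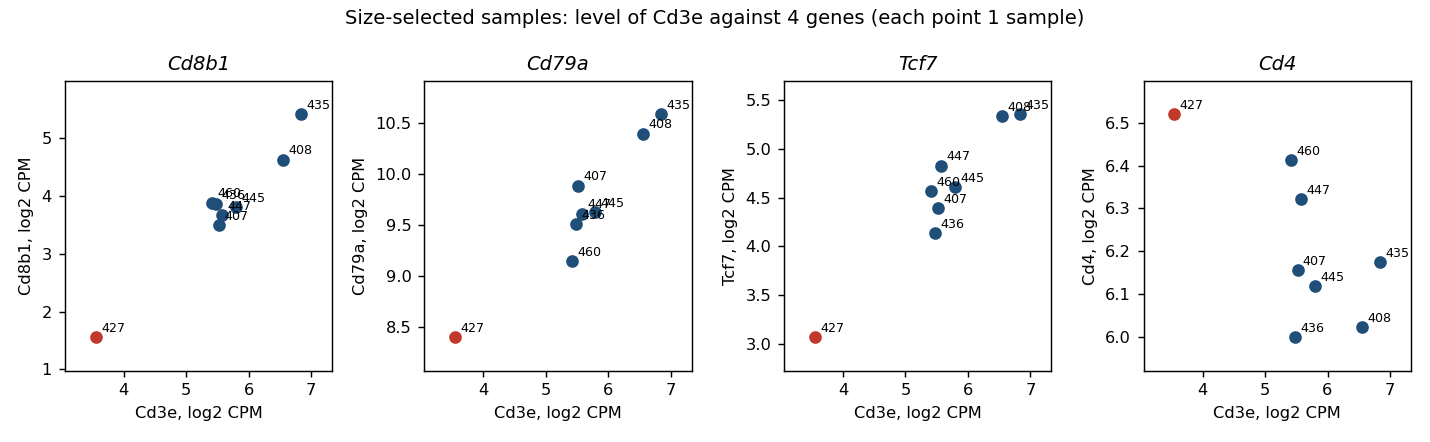
Level of Cd3e (x axis, log2 CPM) against Cd8b1, Cd79a, Tcf7 and Cd4 (y axis, log2 CPM) in the 8 size-selected samples, each point labelled with its number. Sample 427 is lowest for Cd3e, Cd8b1, Cd79a and Tcf7 and highest for Cd4, and samples 408 and 435 lie at the upper end of Cd3e.

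The genes most like Cd3e were sought over all 16 samples, as the correlation of log2 CPM after subtracting the mean of each fraction, among 9290 genes whose log2 CPM averaged 3 or more. They were Bcl2l11 (r = 0.966), Ccl5 (0.966), Sh2d2a (0.966), Cd3d (0.965) and Abcb9 (0.965), given as a description. Of the studied genes, Cd8b1 (0.963) and Cd3g (0.960) came close, Lef1 (0.904), Tcf7 (0.884) and Foxp3 (0.861) followed, and Cd8a (0.557), Ctla4 (0.537) and Cd4 (-0.207) stood lower. The order depends on number 427. Without it, Cd3d was at 0.939, Ccl5 at 0.933, Cd3g at 0.921, Sh2d2a at 0.909, Bcl2l11 at 0.905, Cd8b1 at 0.899 and Abcb9 at 0.898. Lef1 was then at 0.706, Cd8a at 0.696, Tcf7 at 0.688, Foxp3 at 0.675, Ctla4 at 0.250 and Cd4 at 0.052.

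No T cell gene was called between the sexes by edgeR, where 0.194% of 13383 genes were called in whole spleen and 0.0397% of 15127 in the size-selected samples. By direction, 0.0971% were higher and 0.0971% lower in whole spleen of females, and after selection 0.0132% were higher and 0.0264% lower. Cd8a had the smallest edgeR p of the 9 in each fraction, unadjusted 0.004 in whole spleen and 0.00392 after selection. In whole spleen it averaged 29.3 ± 6.59 CPM in females and 44.9 ± 7.78 in males (SD, n = 4), a log2 difference of -0.62 (edgeR adjusted p = 0.139). In the size-selected samples it averaged 12.5 ± 0.488 and 24.9 ± 9.26 CPM (SD, n = 4), a log2 difference of -1.04 (edgeR adjusted p = 0.999). Ctla4 was at 39.9 ± 11.8 CPM in females and 24.3 ± 5.77 in males (SD, n = 4) in whole spleen (log2 difference 0.71, edgeR adjusted p = 0.152), and at 13.7 and 14.2 CPM in the size-selected samples. DESeq2 called these whole spleen differences, with adjusted p of 0.0339 for Cd8a and 0.0403 for Ctla4, where it called 521 genes in all against 26 by edgeR. For the interaction of sex and fraction edgeR called 0 of 15760 genes, 744 having an unadjusted p under 0.05, and DESeq2 called 3, and the unadjusted edgeR interaction p of the 9 T cell genes was at least 0.113.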

How the data were processed

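RNA was sequenced from 8 size-selected and 8 whole spleen samples. The authors deposited estimated counts, 1 value per gene and sample. The submitters' processing notes name Trim Galore, STAR, RSEM and DESeq, without versions or roles, and the build mm10. The annotation and the use of strand are not given in the sources used here. The members, the gene lists, the rule for naming genes and the tests were chosen with earlier results of these data known. The rule took all 9 genes, the 2 largest falls and 2 largest rises among called genes of each T cell list, the most abundant marker of each other cell type and the 5 genes most like Cd3e. Of the listed genes, Zbtb7b, Tcf7l2, Lcp2, Gzmk, Clec9a and Xcr1 were given values outside this rule. The result of 1 marker list is not reported here.

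The constants were found from the values: dividing by them left 0 of 29967 values with more than 2 decimals (tolerance 0.001 on 100 times the value). On simulated columns all constants were found in 8 of 8. After rounding, the counts went through filterByExpr (minimum count 10), TMM scaling and edgeR's quasi-likelihood test (version 4.0.16, R 4.3.3), at a Benjamini-Hochberg adjusted p under 0.05 over all genes tested and no term besides the group. The SE of a log2 fold change is its size divided by the root of its F statistic. On simulated counts for the fraction comparison, where 200 genes were given a log2 change of 2, the test recovered 100% of the 185 changed genes among 14914 tested, with 9 false calls of 194. The simulation gave every gene the same spread beyond counting noise and held no outlying sample. In the data 67.9% of genes were called, so these rates do not measure those of the calls reported here. Ratios used restored counts with 1 added to each, and correlations used log2 CPM (prior count 2) and all 40320 pairings (scipy 1.17.1). All tests were two-sided. Levels per kb use the union of exons in GENCODE M21 (GRCm38), which holds 54723 of the 54838 identifiers, and coordinates are 1-based from that release. Upstream sequences are from RefSeq.

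Whether the numbers pair the samples was checked on deviations from the group means over 14510 genes. Samples with the same number had a mean r of 0.21 (0.12 to 0.37), those with different numbers -0.03, and all 8 pairs exceeded 0.1, so the numbers were treated as pairing the samples. The edgeR and ratio p-values do not use the pairing except where the block or the sign flips are named. The alternatives were DESeq2 1.42.0, limma-voom from limma 3.58.1, a replicate block on the number, restored counts, RLE scaling or library totals in place of TMM, no filter or a stricter filter, a sex term, other ratio and length settings, and leaving out each number. Leaving out size-selected sample 427 alone, sign flips on deposited values, levels as deposited and 14 correlations were added after seeing the data.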

Additional observations from a re-analysis of the deposited data

Results flagged for a closer look

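Over 42 groups of 8 values of single genes and ratios, 6 held a sample that stood apart by Dixon's criterion for the gap to the nearest other sample, where chance at 1 in 20 gives 2.1. In 5 of these it was size-selected sample 427. Its log2 CPM was 3.55 for Cd3e, with the other size-selected samples between 5.42 and 6.84, and 2.73 for Lef1, with the others between 5.08 and 6.68. Its log2 ratio of Cd4 to Cd3e was 2.98, against -0.67 to 1.00 in the others, and its log2 ratio of Cd4 to Cd8b1 was 5.00, against 0.76 to 2.67. Its log2 ratio of Lef1 to Tcf7 was -0.61, against 0.59 to 1.07, the only size-selected sample with less Lef1 than Tcf7. In whole spleen, sample 435 stood apart for Cd4 to Cd3e, with a log2 ratio of -2.25 against -1.57 to -1.04.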

How the results depend on the processing

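Of 894 alternative values, 841 kept their direction and their call or stayed within the spread between samples, 28 moved, 15 gained a call, 8 lost one and 2 reversed. The 8 genes called lower between fractions were called lower in every fit run, with or without the replicate block. The number called higher, 0, became 1, always Cd4, with library totals, a minimum count of 50, limma-voom, the replicate block (adjusted p = 0.0371) and without the whole spleen sample 427. Leaving out each number gave 0 to 1, with Cd4 called without 427 or 436. The replicate block changed no other call among the 9 genes between fractions, while among the lists it gave 9 B cell markers lower in place of 8, 2 type 2 dendritic cell markers lower in place of 1 and 4 red pulp macrophage markers higher in place of 3. Sign flips of pairs gained calls for the ratios of Ctla4 and Lef1 to Cd3e. The log2 difference of the Tcf7 to Cd3e ratio reversed to -0.11 on values as deposited, by either the permutation or the sign flips of pairs (a replicate block).

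Sex in whole spleen gave 26 called genes with edgeR, 521 with DESeq2, where 1 of the 9 genes was called lower and 1 higher, and 7 to 261 when a number was left out, the highest without 427 and the lowest without 460. In the size-selected samples DESeq2 called 22 genes. The interaction gave 3 genes with DESeq2, 3 with the replicate block and 0 to 1 when a number was left out. The causes were not tested. Among the 9 genes, depth limits Foxp3 most, whose lowest sample had 12.5 counts.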

Other observations

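Other blood and stromal cells of the spleen were measured through their markers. Plasmacytoid dendritic cells, the interferon producers, had 5 of 6 markers lower in the size-selected samples and none higher, beside 30.4% of all genes called lower. Their markers summed to 672 to 1373 CPM in whole spleen and 237 to 622 CPM after selection. Ly6d, their most abundant marker and also a gene of B cell progenitors, went from a mean of 827 to 303 CPM. Red pulp macrophages, which clear old red cells, had 3 of 6 markers higher and none lower, beside 37.5% of all genes called higher. On restored counts 4 were higher, and with the replicate block on restored counts all 6 were. Their summed level was 1264 to 2717 CPM in whole spleen and 2568 to 5884 CPM in the size-selected samples, highest in sample 427. Vcam1, an adhesion molecule that endothelial and stromal cells also carry, led this list with a mean of 614 CPM in whole spleen and 2153 CPM after selection. Among the glial markers, the most abundant was Scn7a, a sodium channel gene, at a mean of 0.227 CPM in whole spleen and 59.3 CPM in the size-selected samples.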
